A study of Mus musculus with 3 samples.

Results

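Expression of 9 target genes of PPAR-alpha, a nuclear receptor that drives fat burning in the fasted liver, was described in 3 RNA sequencing libraries of normal mouse liver. The genes were Cyp4a10, Cyp4a14, Acot1, Pdk4, Fgf21, Ehhadh, Vnn1, Plin2 and Angptl4. They were chosen by name as known targets, with earlier results of these data known, and their events were collected by the Ensembl gene identifier of each. By that identifier 8 of the 9 genes had events (28, 28 and 29 in replicates 1, 2 and 3, 33 distinct). When events were placed by their position on the genome instead, 9 of 9 genes had events (27, 28 and 27 in the 3 libraries, 28 distinct), out of 13121 genes with a value. The values below use the placement by position, which was adopted after the identifiers had been seen to misfile events of Cyp4a10 and Acot1.

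The libraries are replicates 1 to 3 of a single group, labelled as liver of healthy, wild-type (WT), male C57BL/6 mice, with no treatment, feeding state, time of day or age given. The series concerns driver genes of liver cancer, and tumour samples were not analysed here. With 1 group there was no contrast between conditions and no test, so differences between libraries are described without p-values. Nothing in the labels tells if each replicate is its own animal, and the spread between them may be technical.

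Each library came as a table of transcript events, such as first exons, last exons, skipped exons and alternative exon ends, with an FPKM value for each (fragments scaled to transcript length and sequencing depth, a scale on which genes of different length can be compared). A gene's value was the largest of the summed first exons, the summed last exons and any other single event. The tables held no read counts, so the depth of the libraries is unknown and values carry no counting interval. After removal of identical rows 71716, 74243 and 74236 events were left, and the lowest listed FPKM was 1e-06. A gene with no listed event is shown as 0, which does not show that it was silent: Gapdh, a glycolytic enzyme of nearly all cells, was listed at 0, 0 and 6.53 FPKM in the 3 libraries.

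The markers of liver were present, since 8 of 8 hepatocyte genes were listed in the tables, with summed values of 33911, 38718 and 37639 FPKM in replicates 1, 2 and 3. The sex label did not match: Xist, the RNA of the inactive X chromosome in female cells, stood at 65.7, 53.9 and 46.4 FPKM, and Eif2s3y, Kdm5d, Uty and Ddx3y, 4 genes of the Y chromosome, were not listed in any of the 3 libraries. The libraries are therefore called by their replicate numbers, and every result below rests on libraries whose sex label goes against their Xist level. None of the 5 striated muscle markers was listed. Of 7 adipocyte markers 3 were listed, with summed values of 30.5, 6.04 and 9.83 FPKM, and Adipoq, Plin1, Retn and Lep were at 0. Cholangiocyte genes summed to 3.69, 2.39 and 2.16 FPKM. In bulk tissue, fewer cells of a type and less RNA per cell cannot be told apart.

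PPAR-alpha is activated by fatty acids that reach the liver during fasting, pairs with the retinoid X receptor and binds DNA at direct repeats of a short motif separated by 1 base. Its targets carry fatty acids into peroxisomes and mitochondria, oxidise them and form ketone bodies. Among the genes described here, Cyp4a10 and Cyp4a14 encode cytochromes P450 that hydroxylate the far end of fatty acids, Ehhadh is a bifunctional enzyme of peroxisomal beta-oxidation, and Acot1 hydrolyses fatty acyl-CoA in the cytosol. Plin2 coats lipid droplets and Vnn1 is a pantetheinase that takes part in coenzyme A turnover. Pdk4 inhibits the pyruvate dehydrogenase complex and so spares glucose, while the secreted proteins Fgf21 and Angptl4 are a hormone of the fasted liver and an inhibitor of lipoprotein lipase.

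Starts of transcription were compared with RefSeq, whose promoter table (GRCm38.p6) held 5 of the 9 genes: Acot1, Pdk4, Fgf21, Ehhadh and Plin2. Cyp4a10, Cyp4a14, Vnn1 and Angptl4 are named only. The main first exon in the liver tables began 12 bases before the RefSeq start for Acot1, 31 for Pdk4, 0 for Fgf21, 10 for Ehhadh and 1 for Plin2. The sequence before each liver first exon is shown, 5′ to 3′ on the strand of the gene, because these are the main starts listed in these libraries. The Plin2 values below came from its last exons. Capitals mark matches to the motifs described after them. The windows are chr12:84009252-84009489 for Acot1 (plus strand, 238 bases), chr6:5496310-5496528 for Pdk4 (minus strand, 219 bases), chr7:45615491-45615740 for Fgf21 (minus strand, 250 bases), chr16:21787845-21788084 for Ehhadh (minus strand, 240 bases) and chr4:86670061-86670309 for Plin2 (minus strand, 249 bases).
Acot1: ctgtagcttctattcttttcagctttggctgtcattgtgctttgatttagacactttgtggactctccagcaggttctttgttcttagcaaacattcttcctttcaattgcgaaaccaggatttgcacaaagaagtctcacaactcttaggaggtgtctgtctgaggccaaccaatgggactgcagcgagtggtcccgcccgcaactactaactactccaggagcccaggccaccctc
Pdk4: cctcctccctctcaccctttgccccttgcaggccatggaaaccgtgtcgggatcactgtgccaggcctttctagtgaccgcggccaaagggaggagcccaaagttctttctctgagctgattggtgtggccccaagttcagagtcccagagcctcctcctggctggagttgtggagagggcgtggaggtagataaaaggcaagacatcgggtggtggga
Fgf21: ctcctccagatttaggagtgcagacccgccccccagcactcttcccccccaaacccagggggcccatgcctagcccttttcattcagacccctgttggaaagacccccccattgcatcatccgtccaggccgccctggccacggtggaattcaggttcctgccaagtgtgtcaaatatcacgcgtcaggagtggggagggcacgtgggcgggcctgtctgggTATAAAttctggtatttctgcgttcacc
Ehhadh: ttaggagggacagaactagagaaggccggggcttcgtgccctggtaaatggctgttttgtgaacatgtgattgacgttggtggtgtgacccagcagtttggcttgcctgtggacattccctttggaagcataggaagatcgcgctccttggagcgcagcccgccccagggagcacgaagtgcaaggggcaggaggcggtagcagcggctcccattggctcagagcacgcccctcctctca
Plin2: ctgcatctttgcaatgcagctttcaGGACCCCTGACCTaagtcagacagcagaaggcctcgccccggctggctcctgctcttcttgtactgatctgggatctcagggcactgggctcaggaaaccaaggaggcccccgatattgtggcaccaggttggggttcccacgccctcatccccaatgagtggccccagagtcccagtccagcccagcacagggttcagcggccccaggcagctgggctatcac

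A pair of AGGTCA motifs in the same direction, separated by 1 base, the textbook form of a PPAR element, was searched on both strands of the 300-base windows (250 bases before the RefSeq start and 50 after), allowing 2 mismatches over the 12 bases of the pair. Of the 5 genes only Plin2 held a match, GGACCCCTGACCT, which lay on the opposite strand with 2 mismatches and began 225 bases before the start. Such a match occurred in 3.86% of the 32851 promoters of this length. In the windows of Acot1, Pdk4, Fgf21 and Ehhadh the best position had 4 mismatches, and with at most 1 mismatch allowed 0 of the 5 genes and 0.554% of all promoters had a match. The letters TATAAA on the strand of the gene were found only in Fgf21, beginning 28 bases before its start, and in 8.32% of all promoters. The matches are descriptions of these windows and not binding sites.

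The levels of the 9 genes covered a wide range. Cyp4a14 (ENSMUSG00000028715, chr4:115486200-115496142, minus strand) was the highest, at 369, 901 and 622 FPKM in replicates 1, 2 and 3 (mean 631 ± 266, SD, n = 3). Cyp4a10 (ENSMUSG00000066072, chr4:115518264-115533649, plus strand) followed at 271, 593 and 443 FPKM (436 ± 161). Both P450 genes were lowest in replicate 1 and highest in replicate 2, and their library ranges overlapped.

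Plin2 (ENSMUSG00000028494, chr4:86648386-86670060, minus strand), the lipid droplet coat gene, stood at 228, 323 and 185 FPKM (245 ± 70.8). Ehhadh (ENSMUSG00000022853, chr16:21761287-21787807, minus strand), the peroxisomal enzyme, stood at 97.7, 239 and 146.0 FPKM (161 ± 71.9). Replicate 2 was highest for both, replicate 3 was lowest for Plin2 and replicate 1 for Ehhadh.

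The next group was expressed at intermediate levels. Vnn1 (ENSMUSG00000037440, chr10:23894688-23905343, plus strand), the pantetheinase gene, was at 31.8, 55.1 and 33.1 FPKM (40.0 ± 13.1). Acot1 (ENSMUSG00000072949, chr12:84009490-84018371, plus strand), the cytosolic thioesterase gene, was at 12.04, 50.1 and 15.9 FPKM (26.0 ± 20.96), with replicate 2 well above the others. Angptl4 (ENSMUSG00000002289, chr17:33773750-33781830, minus strand), the lipoprotein lipase inhibitor gene, was at 23.0, 35.9 and 16.1 FPKM (25.0 ± 10.1). For these genes too replicate 2 held the highest value.

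Fgf21 and Pdk4 were expressed at only a few FPKM. Fgf21 (ENSMUSG00000030827, chr7:45613886-45615490, minus strand) stood at 4.35, 2.61 and 2.55 FPKM (3.17 ± 1.02). Pdk4 (ENSMUSG00000019577, chr6:5483351-5496309, minus strand) stood at 3.62, 2.57 and 2.17 FPKM (2.79 ± 0.75). These were the 2 genes whose highest value was in replicate 1.

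**Figure D1:**
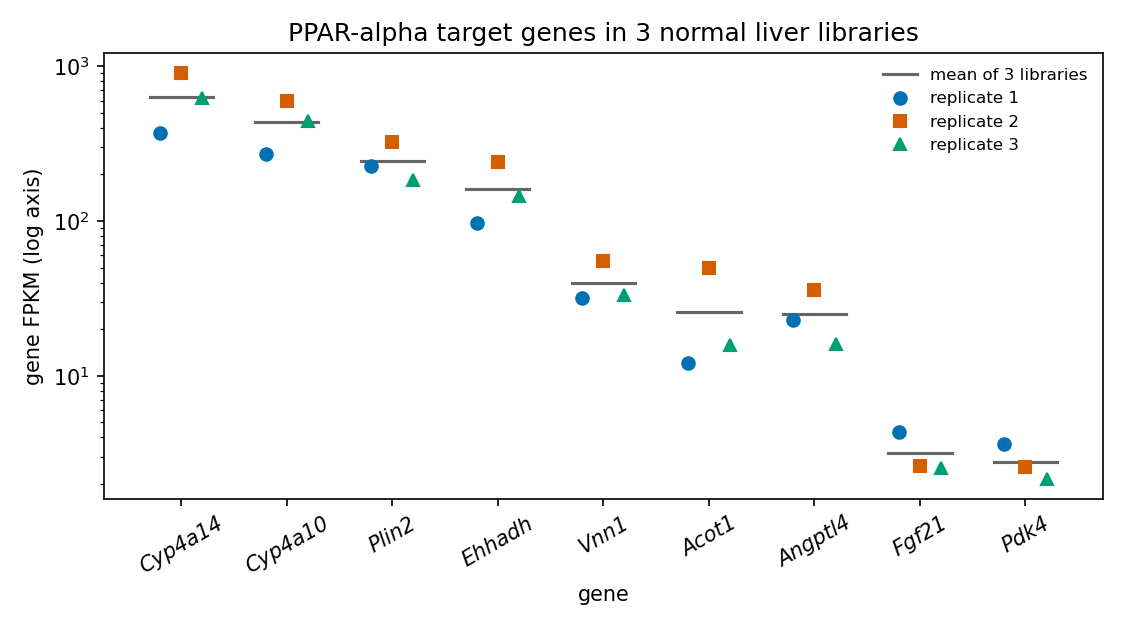
Gene FPKM (vertical log axis) of the 9 PPAR-alpha target genes (horizontal axis, by falling mean) in replicates 1, 2 and 3 of normal liver; points are libraries and grey lines are means of 3. Cyp4a14 to Ehhadh lie above Vnn1, Acot1 and Angptl4 in every library, and Fgf21 and Pdk4 are at 4.35 or lower.

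In the plot of levels by library the genes fall into 3 tiers. Neighbours in the order of means whose library ranges did not overlap were Ehhadh over Vnn1 and Angptl4 over Fgf21, and the other 6 pairs of neighbours overlapped, so their order does not exceed their spread. Most of that order still held inside each library: 7 of the 8 neighbouring pairs kept it in 3 of 3 libraries, the exception being Acot1 and Angptl4, with Acot1 higher in 1 of 3. The order also depended on which events gave the value. By first exons Plin2 stood at 150, 190 and 137 FPKM, below Ehhadh in replicates 2 and 3. By its last exon Cyp4a10 stood at 198 FPKM in replicate 1, below Plin2 at 228 FPKM. By mean level Cyp4a14 stood at the 99.6th percentile of genes with a value, Ehhadh at the 97.9th, Angptl4 at the 88.0th and Pdk4 at the 45.7th.

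The 9 genes varied more between libraries than most genes. The highest library exceeded the lowest 4.16-fold for Acot1, 2.45-fold for Ehhadh, 2.44-fold for Cyp4a14, 2.23-fold for Angptl4 and 2.19-fold for Cyp4a10. The ratio lay between 1.67 for Pdk4 and 1.75 for Plin2 in the other 4. Its median over the 9 was 2.19, against 1.41 over the 9463 genes that averaged 1 FPKM or more and were listed in every library, and 9 of 9 lay above that median. The coefficient of variation (SD as a percentage of the mean) had a median of 37.0% against 17.9%, and reached 80.6% for Acot1.

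To see which library stood apart, each was set against the mean of the other 2 on the log2(FPKM + 1) scale, and a gene was counted when the difference reached 1.5-fold. In replicate 2, 7 of the 9 genes were at least 1.5-fold higher and 0 were lower, while among all 9618 genes that averaged 1 FPKM or more 5.65% were higher and 6.69% lower. Acot1, the thioesterase, had the largest difference at 1.78 (3.44-fold), and the peroxisomal Ehhadh followed at 1.00 (1.99-fold). The P450 genes Cyp4a14 and Cyp4a10 were higher by 0.91 and 0.77. Angptl4 was higher by 0.87, Vnn1 by 0.75 and Plin2 by 0.65 (1.57-fold). Pdk4 and Fgf21, the glucose-sparing kinase and the hormone, differed by -0.10 and -0.27 and did not reach the line. The median over the 9 genes was 0.77, and over all genes 0.017.

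At a line of 2-fold Acot1 alone was left in replicate 2, against 1.52% of all genes. With replicate 1 left out 5 of the 9 were higher and with replicate 3 left out 6. Shares of all genes were not computed with a library left out, here or below. Plin2 by its first exons alone was higher by 0.41, under the line. Acot1 rested on its first exons. By its only listed last exon, which belongs to another annotated transcript and had 0.182 FPKM or less, the difference was -0.040. Erythroid genes, a measure of blood in the sample, summed to 295, 799 and 233 FPKM in the 3 libraries (4 of 4 listed). The 3 globin genes among them were also highest in replicate 2, while Alas2, the heme synthesis enzyme of red cell precursors, stood at 12.3, 10.7 and 9.99 FPKM. Their part in the result was not tested.

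In replicate 1, 0 of the 9 genes were higher (8.26% of all genes) and 4 were at least 1.5-fold lower (7.10% of all genes). The lower genes were Acot1 at -1.17, Cyp4a14 at -1.02, Ehhadh at -0.93 and Cyp4a10 at -0.92, all enzymes of fatty acid handling. Fgf21 at 0.58 (1.49-fold) and Pdk4 at 0.46 were above the other libraries but under the line. The count of lower genes was 2 without replicate 2 and 6 without replicate 3. Kupffer cell genes, those of the liver's macrophages, were lowest in the same library, at 39.1, 81.3 and 75.9 FPKM summed (6 of 6 listed, Adgre1 at 0 in replicate 1). Their part in the result was not tested, and endothelial genes at 32.1, 42.7 and 38.4 and stellate cell genes at 76.3, 88.0 and 85.2 FPKM differed less.

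In replicate 3, 0 genes were higher (5.40% of all genes) and 2 were lower (5.85% of all genes): Angptl4 at -0.80 and Acot1 at -0.61. The median over the 9 genes was -0.33. These values depended on the company replicate 3 was set in. Without replicate 2 the median was 0.055, 1 gene was lower and 2 were higher, and without replicate 1 5 genes were lower. Acot1 in replicate 3 was 0.37 above replicate 1 when replicate 2 was left out.

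**Figure D2:**
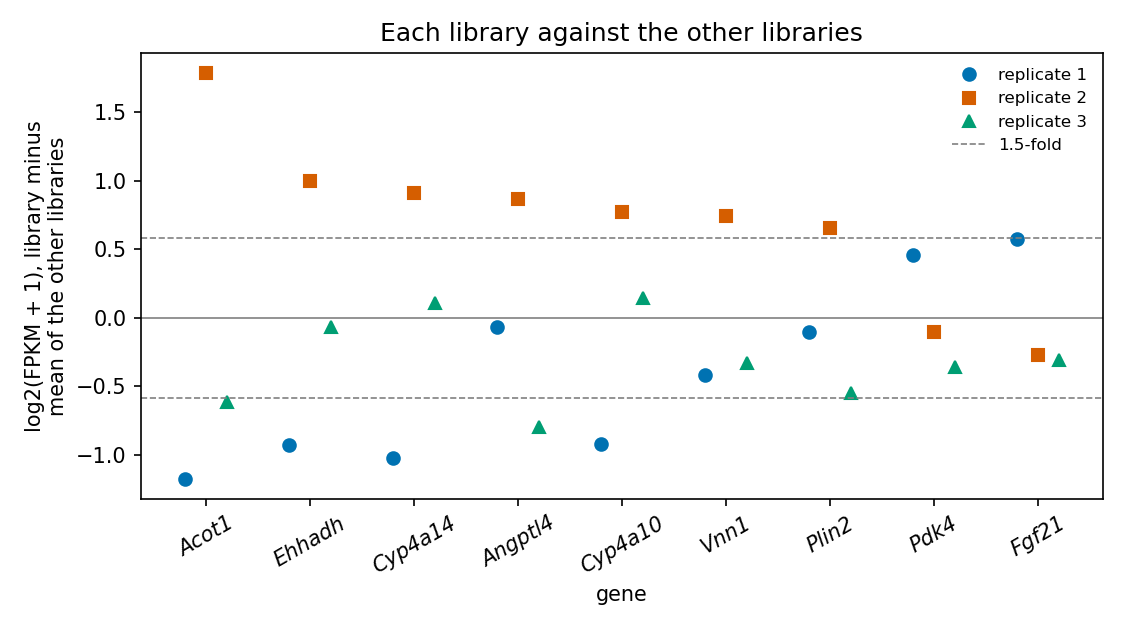
Difference in log2(FPKM + 1) between each library and the mean of the other libraries (vertical axis) for the 9 genes (horizontal axis); points are replicates 1, 2 and 3, and dashed lines mark 1.5-fold. Replicate 2 lies above the upper line for 7 genes, from 0.65 for Plin2 to 1.78 for Acot1, while Pdk4 and Fgf21 lie highest in replicate 1.

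The plot of library differences shows the 2 patterns side by side, with Pdk4 and Fgf21 apart from the other 7 genes. Both were also the lowest in level, and 1 FPKM was added before the logarithm, which shrinks the differences of genes at a few FPKM. With 0.1 FPKM added instead, 2 of the 9 genes were at least 1.5-fold higher in replicate 1, against 11.7% of all genes at that setting.

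The genes whose 3 library values ran closest to the members' median were sought among 3275 other genes that averaged 10 FPKM or more. The measure was the root mean square distance between deviations of log2(FPKM + 1) from the gene's mean. The 5 nearest were Clk1, a kinase of splicing factors, at a distance of 0.026, Cept1, an enzyme of phospholipid synthesis, at 0.027, 5033403H07Rik at 0.039, Mmd at 0.046 and Pctp, a phosphatidylcholine transfer protein, at 0.049. Clk1 stood at 20.2, 34.2 and 20.6 FPKM. With 3 libraries only 2 values are free, and 30 of the 3275 genes came within 0.1. Among the 9 genes Vnn1 was the closest to their median at 0.011 and Acot1 the farthest of those with a mean of at least 10 FPKM, at 0.50. The deviations of Vnn1, -0.28 in replicate 1 and -0.22 in replicate 3, were themselves the median there, so its closeness was largely built in.

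The internal structure of the genes was read from their events. For Pdk4, Fgf21 and Ehhadh every listed event had the same FPKM in a library, so their events are not separate measurements. Ehhadh was listed with 1 internal exon included (chr16:21777799-21777902), whose value equalled that of the gene, and no event that skipped it. Angptl4 had 1 event, a first exon (chr17:33781063-33781575), and no last exon.

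Plin2, Vnn1 and Cyp4a10 showed a choice of exon structure. The exons are printed because their alternative parts carry the shares given next. They are taken from GENCODE M21 transcripts on GRCm38, 5′ to 3′, for Plin2 at chr4:86658100-86658172 (minus strand), Vnn1 at chr10:23898408-23898600 (plus strand) and Cyp4a10 at chr4:115520252-115520296 (plus strand). Capitals mark the part that is present in one form and absent from the other.
Vnn1: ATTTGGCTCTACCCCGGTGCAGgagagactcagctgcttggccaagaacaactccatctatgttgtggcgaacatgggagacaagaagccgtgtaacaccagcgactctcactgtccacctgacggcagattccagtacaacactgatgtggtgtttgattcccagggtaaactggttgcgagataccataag
Cyp4a10: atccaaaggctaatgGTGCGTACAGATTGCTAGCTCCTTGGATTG
Plin2: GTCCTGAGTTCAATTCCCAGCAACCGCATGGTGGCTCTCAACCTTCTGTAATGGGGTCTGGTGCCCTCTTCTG

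In Plin2 the 73-base exon lies in an intron between the last coding exons of the main protein-coding transcript and is annotated in Plin2 only in a transcript without a coding sequence. Events that included it stood at 80.7, 133 and 51.9 FPKM and events that skipped it at 147, 189 and 133 FPKM. Events that included it thus held 35.5, 41.3 and 28.1% of the Plin2 value (35.0 ± 6.64%, n = 3), most in replicate 2 and least in replicate 3. Whether reads of this exon could come from copies of its sequence elsewhere was not tested, so the share need not be a rate of inclusion. Skipping stayed above inclusion in 3 of 3 libraries.

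In Vnn1 the outer acceptor gave 26.4, 43.0 and 29.5 FPKM and the inner acceptor, 22 bases further on, 5.40, 12.1 and 3.61 FPKM. The inner acceptor, which belongs to a second annotated transcript, took 17.0, 21.9 and 10.9% (16.6 ± 5.51%, n = 3). The 22 bases lie inside the coding sequence of the main transcript and are not a multiple of 3.

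In Cyp4a10 the full 45-base exon was at 245, 542 and 420 FPKM, and the form that ended at the inner donor, 30 bases earlier, at 26.2, 51.8 and 23.6 FPKM. The inner donor, which is annotated too, took 9.68, 8.72 and 5.32% (7.91 ± 2.29%, n = 3). The 30 bases are coding and a multiple of 3. As in Plin2 and Vnn1 the lowest share was in replicate 3, which is a description of 3 libraries whose depth is unknown.

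**Figure D3:**
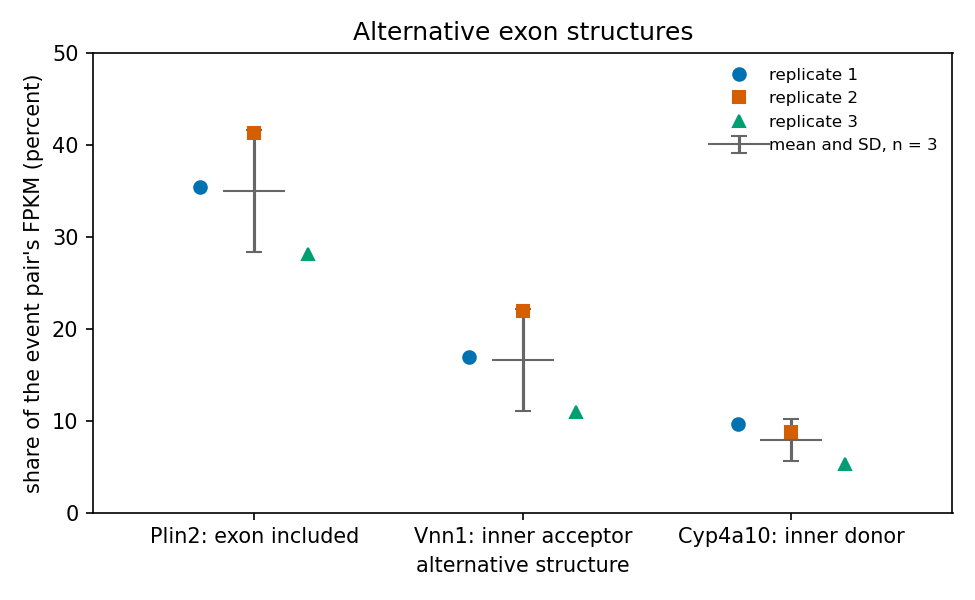
Share of the event pair's FPKM, in percent (vertical axis), that carried the Plin2 exon, the Vnn1 inner acceptor and the Cyp4a10 inner donor (horizontal axis); points are replicates 1, 2 and 3, and bars are mean and SD, n = 3. The means were 35.0, 16.6 and 7.91%, and replicate 3 is lowest in each.

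First and last exons did not always give the same level. In Plin2 the main first exon (chr4:86669945-86670060) held 99.2, 99.3 and 97.4% of the first-exon FPKM, yet first exons summed to 65.7, 58.9 and 74.1% of last exons. Those first-exon sums, 150, 190 and 137 FPKM, lay close to the events skipping the 73-base exon, at 147, 189 and 133 FPKM. The gap to the last exons and the share of that exon are therefore not separate measurements. The Cyp4a10 last exon (chr4:115533134-115533649) stood at 198, 449 and 243 FPKM, or 72.9, 75.7 and 54.7% of its first exon. Cyp4a14 had no first exon listed on its own strand, and its value came almost wholly from the last exon at chr4:115486200-115487311. Of 9 distinct events under its identifier 7 lay on the plus strand, while the gene is on the minus strand, with a last exon at chr4:115487097-115489782 of 0.43, 3.21 and 4.86 FPKM. The protocol in the labels does not say that the libraries kept strand, so reads of the gene and of an antisense RNA cannot be told apart.

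Acot1 had 3 first exons in the tables. The main one (chr12:84009490-84009966) stood at 11.4, 49.9 and 15.7 FPKM and held 94.4, 99.5 and 98.8% of the first-exon FPKM. The start at chr12:84012864-84014581 gave 0.680, 0.0990 and 0.184 FPKM, and a start at chr12:84010135-84010266 was listed only in replicate 2, at 0.129 FPKM. The only last exon listed had 0.0781, 0.0981 and 0.182 FPKM, so the level of Acot1 came from its start. That last exon is annotated in another transcript than the main first exon, so the 2 exons do not measure the same form. Under the Acot1 identifier the tables also held the first exon of Acot2 (chr12:83987861-83988481), which is counted here for Acot2.

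Close relatives can share reads, and the share of identical 100-base windows between main transcripts was measured. Acot1 shared 16.5% of its windows with Acot2, 4.79% with Acot3 and 0.414% with Acot4, so the Acot values, whose reads the authors' quantification could have split, are uncertain. Cyp4a10 shared 9.80% with Cyp4a32, under whose identifier it was filed, 5.37% with Cyp4a31 and 0% with Cyp4a14. Vnn1 and Vnn3 shared 0%.

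Within the P450 family Cyp4a10 was below Cyp4a14 in 3 of 3 libraries by -0.51 ± 0.083 on the log2(FPKM + 1) scale. The value of Cyp4a10 came from its first exon and that of Cyp4a14 from last exons, and with last exons for both the difference was -1.08. Cyp4a12a, a relative with male-biased expression in mouse liver, stood at 15.3, 0.80 and 7.28 FPKM and was below Cyp4a14 in 3 of 3 (6.57 ± 2.25). Its order over the libraries was the reverse of that of Cyp4a14.

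Among the thioesterases Acot1 was above the mitochondrial Acot2 (7.84, 11.1 and 7.59 FPKM) in 3 of 3 libraries by 1.20 ± 0.78, the SD reflecting replicate 2. By last exons alone the difference was -3.12, with the Acot1 last exon at 0.182 FPKM or less. Against the peroxisomal Acot3 (45.1, 101 and 67.4 FPKM) Acot1 was lower in 3 of 3, by -1.61 ± 0.54. Against Acot4 (28.9, 37.5 and 30.7 FPKM) it was higher only in replicate 2 (-0.56 ± 0.86). In Acot3 the start that held the value changed: a first exon at chr12:84052144-84052180 stood at 92.5 FPKM in replicate 2 and was not listed in the other libraries, where the start at chr12:84053096-84053941 had 45.1 and 67.4 FPKM against 8.30 in replicate 2.

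Pdk4 was the lowest of the pyruvate dehydrogenase kinases apart from Pdk3. It was below Pdk1 (17.5, 16.4 and 12.9 FPKM) by -2.14 ± 0.14 and below Pdk2 (20.8, 24.9 and 23.9 FPKM) by -2.69 ± 0.39, in 3 of 3 libraries. Pdk3 was listed at 0.63, 0 and 0 FPKM.

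Plin2 exceeded the other perilipins in 3 of 3 libraries. The difference was 3.95 ± 0.13 against Plin5 (12.5, 20.2 and 12.02 FPKM), 3.76 ± 0.53 against Plin3 (15.9, 15.5 and 18.7 FPKM) and 5.64 ± 0.81 against Plin4 (6.22, 2.45 and 3.44 FPKM). Plin5, which links droplets to mitochondria, kept the steadiest distance to Plin2.

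Against Angptl8 (94.4, 33.6 and 62.2 FPKM), which is raised by feeding, Angptl4 was lower in replicates 1 and 3 and level in replicate 2 (-1.26 ± 1.17). Vnn1 and Vnn3 (33.4, 30.5 and 36.0 FPKM) differed by less than their spread (0.22 ± 0.54), with Vnn1 higher only in replicate 2. Ehhadh and Hsd17b4 (101, 127 and 112 FPKM), the other bifunctional enzyme of peroxisomes, also differed by less than their spread (0.41 ± 0.48). Fgf21 was below Fgf1 (11.5, 30.1 and 25.3 FPKM) in 3 of 3 libraries (-2.41 ± 1.03).

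**Figure D4:**
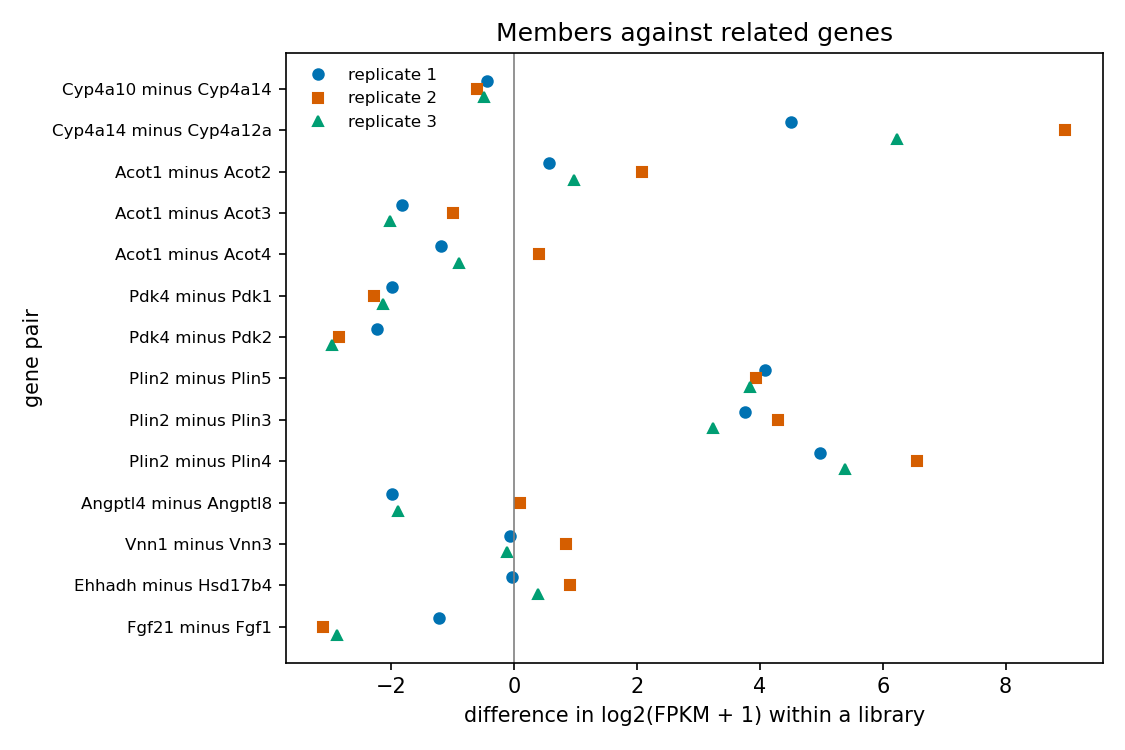
Difference in log2(FPKM + 1) between a target gene and a related gene within a library (horizontal axis) for 14 gene pairs (vertical axis); points are replicates 1, 2 and 3. Plin2 lies right of 0 and Pdk4 left of 0 in each of 3 libraries, while Acot1 minus Acot4, Angptl4 minus Angptl8, Vnn1 minus Vnn3 and Ehhadh minus Hsd17b4 cross 0.

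The plot of gene pairs shows where replicate 2 set the spread: its point lies apart for Acot1, Angptl4 and Vnn1 and close to the others for Pdk4 minus Pdk1 and Plin2 minus Plin5.

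The receptor side of the pathway was read from 22 receptors and cofactors, of which 20 had a mean of at least 1 FPKM. Ppara itself stood at 13.6, 29.7 and 30.1 FPKM, lowest in replicate 1 (-1.08). Of the 9 target genes 5 were also lowest in replicate 1, and the other 4 were lowest in replicate 3. While 7 of the 9 were highest in replicate 2, Ppara was near level in replicates 2 and 3. The first exons of Ppara differed between libraries: one (chr15:85735776-85736096) had 5.12, 27.4 and 26.4 FPKM, and the next (chr15:85736131-85736172) had 8.05, 0.849 and 3.47 FPKM. In replicate 1, 1 of the 20 genes was higher and 6 were lower (8.26 and 7.10% of all genes). In replicate 2 the counts were 0 and 1 (5.65 and 6.69%), and in replicate 3 they were 4 and 1 (5.40 and 5.85%). Of the most abundant, Hnf4a, a master regulator of hepatocytes, stood at 81.0 ± 19.5 FPKM and Rxra, the partner of PPAR-alpha, at 63.3 ± 10.7, with Ncor1, a corepressor, at 10.6 ± 2.75. Klb, the co-receptor of Fgf21, stood at 4.57, 9.96 and 10.8 FPKM, and Fgfr1 at 1.18, 0.988 and 0.855 FPKM; Klb was chosen after its values were seen.

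A list of 45 other PPAR-alpha targets had 43 genes with a value and 41 with a mean of at least 1 FPKM. In replicate 2, 9 of the 41 were at least 1.5-fold higher and 5 lower (5.65 and 6.69% of all genes), and the median was 0.38. The highest value of 29 of the 41 was in replicate 2, as it was for 3140 of all 9618 genes. The higher genes, named here after their values were seen, were the carnitine carriers Slc25a20 and Slc22a5, both subunits of the mitochondrial trifunctional protein (Hadha and Hadhb), Acsl1, Acot3, Plin5, Creb3l3 and Cyp4a32. Hadhb, for example, stood at 22.9, 56.0 and 35.7 FPKM. The lower genes were Cyp4a12a, Cd36, Plin4, Cidec and Acaca, among which Cidec and Plin4 coat lipid droplets and Acaca begins fatty acid synthesis. Replicate 1 had 5 higher and 6 lower (8.26 and 7.10% of all genes, median -0.21), and replicate 3 had 2 and 2 (5.40 and 5.85%, median -0.099). The most abundant were Fabp1, the fatty acid carrier of liver cytosol, at 6484 ± 1159 FPKM, Acaa1b, a peroxisomal thiolase, at 737 ± 72.2, Acaa2, a mitochondrial thiolase, at 458 ± 35.3, and Slc27a2 at 398 ± 97.9.

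A further list held other genes of fasting, induced through glucagon, glucocorticoids or FOXO factors, together with 7 stress-response genes such as Atf4, Ddit3 and Trib3 that share regulation with Fgf21. Of 26 such genes 22 were counted, and in replicate 2 1 was higher and 9 were lower (5.65 and 6.69% of all genes, median -0.44). The lower ones included the gluconeogenic and amino acid genes Pck1 (728, 318 and 630 FPKM), Tat (305, 130.2 and 283 FPKM), Sds (144, 69.3 and 126 FPKM) and G6pc (92.1, 43.4 and 90.0 FPKM), which were the 4 most abundant of the list. The higher gene was Fkbp5, a glucocorticoid target, at 5.87, 18.1 and 7.13 FPKM (named after its values were seen). In replicate 1, 4 were higher and 1 lower (8.26 and 7.10% of all genes), and in replicate 3 4 and 0 (5.40 and 5.85%).

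Of the genes listed as raised in the fed liver, 15 of 19 had their lowest value in replicate 2, against 2961 of all 9618 genes. Of 20 such genes 19 were counted, and in replicate 2 1 was higher and 12 were lower (5.65 and 6.69% of all genes, median -0.69). The higher gene was Insig2, whose place among fed-state genes was not tested. In replicate 1, 8 were higher and 0 lower (8.26 and 7.10% of all genes, median 0.53), and in replicate 3 1 and 1 (5.40 and 5.85%). Among the 4 most abundant, Scd1, the desaturase that makes monounsaturated fat, stood at 856, 432 and 711 FPKM and Fads2 at 111, 70.4 and 154 FPKM. Elovl5 at 179 ± 28.8 FPKM and Dgat2 at 148 ± 17.6 FPKM did not reach the line in replicate 2.

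**Figure D5:**
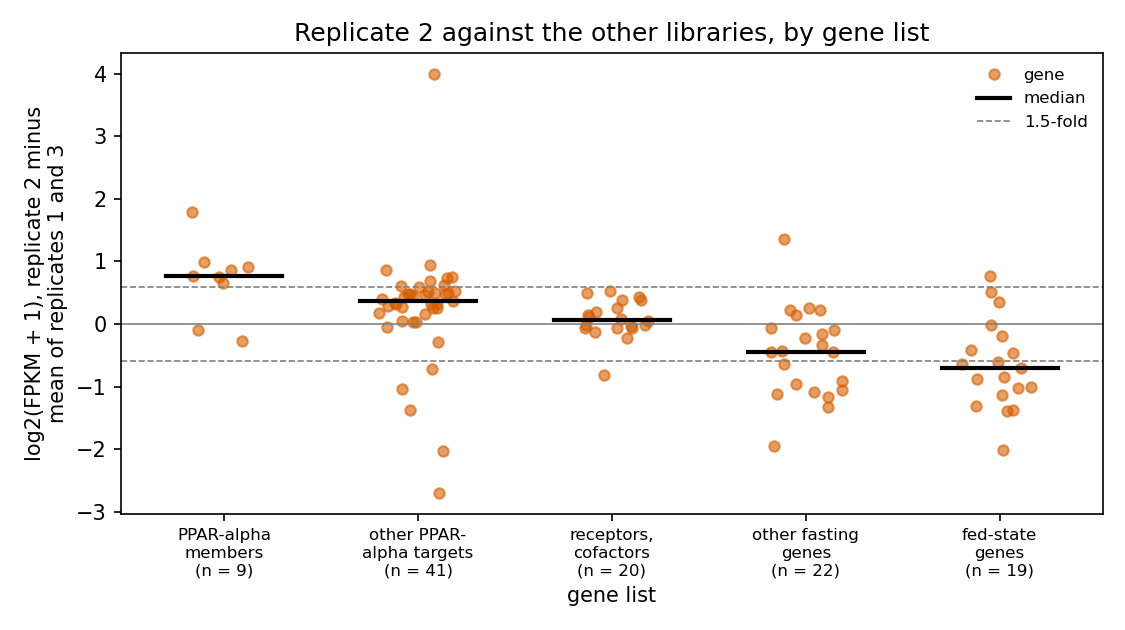
Difference in log2(FPKM + 1) between replicate 2 and the mean of replicates 1 and 3 (vertical axis) for the genes of 5 lists (horizontal axis); points are genes, thick lines are medians and dashed lines mark 1.5-fold. The median is 0.77 for the 9 PPAR-alpha targets, 0.38 for the other targets, -0.44 for other fasting genes and -0.69 for fed-state genes.

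In the plot of replicate 2 by list, PPAR-alpha targets lie mostly above 0 and both the other fasting genes and the fed-state genes mostly below it. These are single libraries, Acaca and Ppargc1a are each on 2 of the lists, and the feeding state is not given, so the lists describe replicate 2 and do not assign it a state.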

How the data were processed

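RNA sequencing libraries of liver were made, per the labels' protocols, from total RNA with an integrity number above 6.5, and the text leaves it undecided whether poly(A) RNA was selected or ribosomal RNA removed. The authors deposited FPKM values per transcript event. Tools listed in the submitters' processing notes, with no roles, are HISAT2 2.0.1, cutadapt 1.9.1, DESeq2 and HTSeq 0.6.1, and the build listed is mm9. What tool made the event tables is not given in these sources. Positions were read as GRCm38, because 82.0, 82.2 and 82.7% of first exons matched a GENCODE M21 first exon exactly, against 0.00564% or fewer once shifted by 1000 bases.

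Identical rows (1440 to 1519 in a library) were dropped. The design grouped events by identifier. After the files had been seen, events were placed by exact first or last exon, then by splice site, then by identifier on the same strand, and 2.64, 2.61 and 2.34% stayed unplaced. The identifier gave Cyp4a10 no event and gave Acot1 exons of Acot2. Gene values, differences of log2(FPKM + 1) and counts past 1.5-fold were computed in Python 3.11.15 with pandas 2.3.3 and numpy 2.4.6, and the computation was tested on simulated data. Genes named are the 9 targets, both genes of each pair, the 4 most abundant of each list, the 5 of nearest pattern and others said to be chosen after their values were seen. Results of some genes under this rule are not reported here. Lists and targets were chosen with earlier results of these data known. Alternatives were other gene values, scalings, pseudocounts, minimum levels, fold lines and leaving out each library.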

Additional observations from a re-analysis of the deposited data

How the results depend on the processing

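Over 74 results and 754 recomputed values, the exceptions among the counts, the medians and the pairs Cyp4a10 with Cyp4a14 and Acot1 with Acot2 are given here, and the cause was not tested. The count of genes at least 1.5-fold higher in replicate 2 was 7 and became 1 at a line of 2-fold (1.52% of all genes). It was 5 to 6 with a library left out. In replicate 1 the count of higher genes became 2 with a pseudocount of 0.1 (11.7% of all genes). It ranged from 0 to 1 with a library left out. The count of lower genes there became 2 at a line of 2-fold (2.86% of all genes) and ranged from 2 to 6 with a library left out. In replicate 3 the count of lower genes was 2 as reported. It became 0 with last exons alone (6.56% of all genes) and 0 at a line of 2-fold (1.82%). It was 1 when libraries were rescaled to the same summed gene FPKM (5.06%). By identifier it was 1 (5.56%), and also 1 by identifier on the annotated strand (5.46%). With a library left out it ranged from 1 to 5, the count of higher genes from 0 to 2, and the median difference from -0.71 to 0.055, the last without replicate 2. Acot1 changed sign with last exons alone, to -0.040 in replicate 2 and 0.12 in replicate 3, and ranged from -1.60 to 0.37 in replicate 3 with a library left out. The Acot1 last exon listed, at 0.182 FPKM or less, belongs to another annotated transcript than its main first exon. Its values do not show the direction of the main form. Cyp4a10 minus Cyp4a14 became -1.08 and Acot1 minus Acot2 -3.12 with last exons alone. By first exons alone the mean of Plin2 was 159 FPKM. With a minimum of 1 FPKM the 5 genes of nearest pattern were Zfp280c, Clk1, Cept1, Bud13 and Tspan33. No paired analysis was possible because the design has 1 group. Depth is unknown, so values near the lowest listed FPKM could not be given an error from counting.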
